A study of Mus musculus with 31 samples.

Results

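Ependymal cells of the mouse spinal cord that carried an Olig2 transgene were compared 5 days after injury and without injury. The comparison used 4 of the 31 samples of the series, chosen by their labels alone: 2 bulk RNA libraries of the genotype Foxj1_Olig2_tdT at 5dpi, and 2 of the same genotype labelled Uninj. The labels do not expand dpi, which is read here as days after injury. Both groups were ependymal cells of mice on the C57BL/6 background, obtained by tissue digestion and flow cytometry. Foxj1 is the gene whose driver marks ependymal cells, tdT is a red fluorescent reporter and Olig2 is the added transcription factor. The Uninj cells therefore carry the Olig2 transgene as well. The other bulk RNA libraries were 2 of Foxj1_Olig2_tdT at 1dpi and 2 each of Foxj1_tdT, without the transgene, at 5dpi, 1dpi and Uninj. The labels do not give the alleles, the kind of injury, the age of the mice or the animals behind each library. A p-value here therefore covers the spread between libraries, which may be technical.

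Ependymal cells line the central canal and beat motile cilia, which move cerebrospinal fluid. Each motile cilium has an axoneme of microtubule doublets with dynein arms and radial spokes, built by intraflagellar transport and switched on by Foxj1 and the Rfx factors. In the injured spinal cord ependymal cells are known to divide and to give rise mainly to astrocytes of the scar. Olig2 specifies oligodendrocyte progenitors, which next express Sox10 and then myelin genes.

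At 5 days the libraries of injured cells held far less RNA of the motile axoneme. They held more RNA of the cell cycle, of the actin cytoskeleton, of reactive glia and of ribosomes. In these bulk libraries a change per cell and a change in the mix of cells cannot be told apart. Of 15811 genes tested, 2217 (14.0%) were higher at 5dpi and 1831 (11.6%) were lower at an adjusted p under 0.05, 25.6% in both directions, and such genes are referred to as called. The median log2 fold change over all genes tested was 0.12. With 5dpi replicate 1 left out 1155 genes were called higher and 1193 lower, and with 5dpi replicate 2 left out 957 and 1048, so each count rests in part on both injured libraries. Without Uninj replicate 1 the counts were 1735 and 1263, and without Uninj replicate 2 they were 2260 and 1539. Values per library are normalised counts, given as replicate 1 and then replicate 2, and a log2 fold change is 5dpi minus Uninj on the scale log2(value + 1) with its standard error.

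The promoters of a few called genes are printed as chosen examples that hold the motifs counted below. They do not show how often a motif occurs in a gene group. Of the 2 promoters listed for Pifo, the one that holds the most of the marked motifs is given. Each sequence is from RefSeq on GRCm38.p6, written 5′ to 3′ along the gene's strand from 250 bases before the start site to 50 after it, with the motif in capitals. The first pair belongs to cilium genes called lower. Pifo (chr3:106001448-106001747, minus strand) holds an X-box, the site of Rfx factors (GTTNCC, 2 bases of any kind, GGNAAC), and Cfap161 (chr7:83794790-83795089, minus strand) holds copies of an X-box arm (GTTGCCA), read on the opposite strand.
Pifo: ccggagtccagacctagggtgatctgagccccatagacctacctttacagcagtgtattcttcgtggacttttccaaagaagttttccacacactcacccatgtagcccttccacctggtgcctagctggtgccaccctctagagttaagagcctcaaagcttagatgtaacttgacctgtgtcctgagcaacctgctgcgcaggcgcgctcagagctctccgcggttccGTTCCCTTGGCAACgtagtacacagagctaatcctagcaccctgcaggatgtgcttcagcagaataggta
Cfap161: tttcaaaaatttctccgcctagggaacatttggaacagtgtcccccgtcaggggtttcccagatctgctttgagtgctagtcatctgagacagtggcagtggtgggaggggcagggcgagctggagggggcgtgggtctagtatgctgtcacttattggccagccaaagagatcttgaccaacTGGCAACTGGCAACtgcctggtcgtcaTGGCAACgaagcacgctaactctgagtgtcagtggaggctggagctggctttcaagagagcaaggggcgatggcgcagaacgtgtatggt
The next are genes of mitosis called higher, with capitals for the cell cycle homology region (CHR, TTTGAA) and for the NF-Y box (CCAAT) on either strand. They are Cdk1 (chr10:69352863-69353162, minus strand), Cdc20 (chr4:118437294-118437593, minus strand) and Mki67 (chr7:135716330-135716629, minus strand).
Cdk1: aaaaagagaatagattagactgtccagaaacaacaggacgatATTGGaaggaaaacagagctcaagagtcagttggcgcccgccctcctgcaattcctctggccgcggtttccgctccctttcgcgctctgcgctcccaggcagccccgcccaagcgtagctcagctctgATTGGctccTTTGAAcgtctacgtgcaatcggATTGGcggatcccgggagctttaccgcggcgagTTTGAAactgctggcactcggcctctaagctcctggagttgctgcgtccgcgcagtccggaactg
Cdc20: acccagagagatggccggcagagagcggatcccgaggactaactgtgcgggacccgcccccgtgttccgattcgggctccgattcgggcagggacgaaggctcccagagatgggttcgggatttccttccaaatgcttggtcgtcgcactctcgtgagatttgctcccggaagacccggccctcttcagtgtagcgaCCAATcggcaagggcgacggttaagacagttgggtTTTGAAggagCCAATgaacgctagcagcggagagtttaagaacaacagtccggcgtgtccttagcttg
Mki67: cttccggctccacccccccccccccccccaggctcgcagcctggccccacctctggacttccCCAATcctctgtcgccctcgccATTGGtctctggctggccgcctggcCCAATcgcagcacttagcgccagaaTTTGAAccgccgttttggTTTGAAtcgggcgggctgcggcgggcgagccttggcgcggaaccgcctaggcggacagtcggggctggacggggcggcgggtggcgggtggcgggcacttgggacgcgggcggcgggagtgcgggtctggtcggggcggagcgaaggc
The last is a replication gene called higher, Mcm6 (chr1:128359656-128359955, minus strand), with capitals for an E2F element (TTTGGCGC).
Mcm6: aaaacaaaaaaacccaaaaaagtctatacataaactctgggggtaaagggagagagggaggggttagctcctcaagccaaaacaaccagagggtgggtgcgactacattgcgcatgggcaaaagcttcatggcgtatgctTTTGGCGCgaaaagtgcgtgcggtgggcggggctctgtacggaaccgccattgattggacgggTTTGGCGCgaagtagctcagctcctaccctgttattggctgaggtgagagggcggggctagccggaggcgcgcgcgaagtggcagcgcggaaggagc

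Motifs were searched as exact letters on both strands of these windows, where N is any base. Promoters were found for 72 of the 88 axoneme genes called lower, 42 of the 51 mitosis genes called higher and 25 of the 30 replication genes called higher. The X-box arm was in 18.5% of 81 promoters of axoneme genes called lower, against 8.81% of promoters of all genes called lower, 2.27% of those of all genes called higher and 4.38% of all 32851 promoters given. The full X-box shown for Pifo was in 2 of the 81 axoneme promoters (2.47%), against 1.55% for all genes called lower and 0.451% of all promoters. CHR letters stood in 73.9% of 46 promoters of mitosis genes called higher, against 17.9% of all promoters. The NF-Y box, a common motif, stood in 80.4% of the same 46 promoters, against 37.4% of all. Both together were in 65.2% of the mitosis promoters and in 6.95% of all. An E2F element (TTTGGCGC or TTTCCCGC) was in 29.0% of 31 promoters of replication genes called higher, against 1.56% of all. Over promoters of all genes tested, the X-box arm stood in 4.07%, the full X-box in 0.566% and CHR in 12.6%. There the NF-Y box stood in 37.5%, CHR and the NF-Y box together in 5.1% and an E2F element in 2.61%. Over all genes called higher, CHR was in 13.5% of promoters, near the share of genes tested. The high share thus held in the mitosis list and not across the called genes. The shares are descriptions of letters in a window, not of bound sites.

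**Figure D1:**
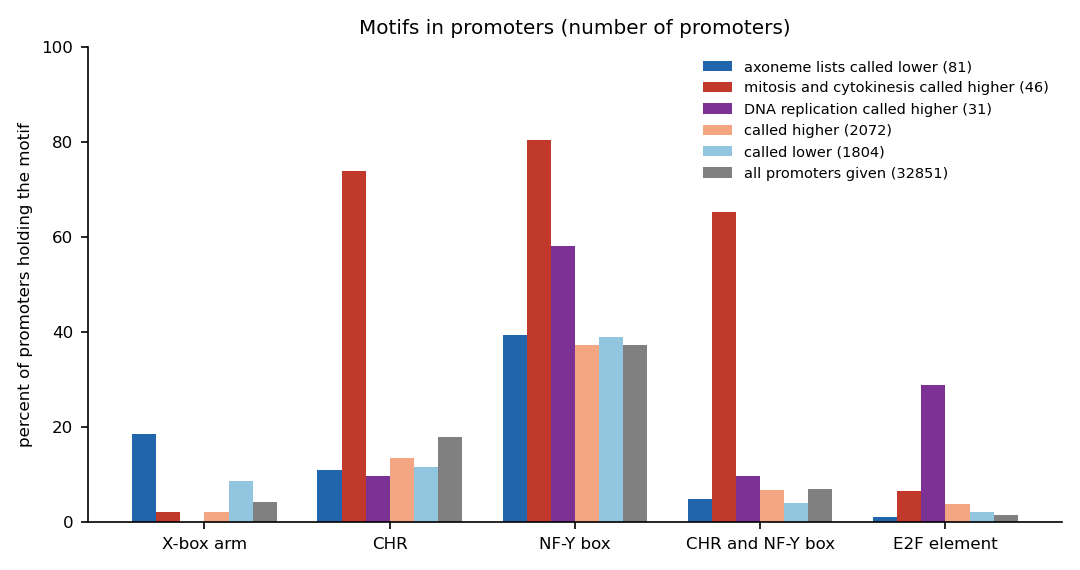
Percent of promoters that hold each motif on either strand, by gene group, with the number of promoters in the legend. The bars for mitosis genes called higher stand at 73.9% for CHR and 80.4% for the NF-Y box, and the bar for axoneme genes called lower stands at 18.5% for the X-box arm.

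The normalised counts summed to between 12601289.7 and 13878101.7 in the 12 bulk RNA libraries and between 14395 and 15379 genes were above 0. The values did not give back whole reads, so read depth is unknown. The 5dpi pair was the more alike (r = 0.9289 over genes on the log2 scale, with 56 genes listed at 0 on one side and at no less than 50 on the other) and the Uninj pair the least alike of the 6 groups (r = 0.8678, with 412 such genes). The Foxj1_tdT Uninj pair stood apart as far more alike than any other (r = 0.9888, with 5 such genes), and was averaged and counted as 1 sample. Whether that pair differed by less than sampling noise could not be tested without reads. Mitochondrially encoded genes took 5.40 and 4.85% of the summed values in 5dpi cells, against 9.41 and 8.22% in Uninj cells. In bulk samples, fewer cells of a type and less RNA per cell cannot be told apart.

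The 2 genes of the genotype's name were read first. Olig2 had 2794 and 3792 in 5dpi cells, against 2450.1 and 1690.3 in Uninj cells, and did not pass the test (log2 fold change 0.68 ± 1.02, adjusted p = 0.67). Its level was 2794 and 3792 in Foxj1_Olig2_tdT cells and 17.4 and 195 in Foxj1_tdT cells at 5dpi, and 2450.1 and 1690.3 against 4.5 and 4.4 without injury, so Olig2 RNA followed the label, with endogenous and transgenic RNA not told apart. Foxj1, the master factor of motile ciliogenesis, had 982 and 934 in 5dpi cells, against 3209 and 3387 in Uninj cells, a drop of 3.44-fold in the means (log2 fold change -1.78 ± 0.17, adjusted p = 0.00019). Over Uninj, 1dpi and 5dpi its values were 3209 and 3387, then 2192 and 2302, then 982 and 934, with no overlap between times. In Foxj1_tdT cells Foxj1 had 1280.1 and 1252 at 5dpi and 2708 and 3055 in Uninj, and the changes of the genotypes did not differ past the threshold (difference -0.60 ± 0.27 on the log2 scale, adjusted p = 0.32).

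Genes of the axoneme were lower almost throughout. Of 35 tested genes for axonemal dyneins and their assembly factors, 33 were called lower and 0 higher, and the median log2 fold change was -3.05. Of 58 for radial spokes, the central pair, tektins and their neighbours, 55 were called lower and 0 higher, with a median of -3.04. With each of the 4 libraries left out in turn these counts stayed between 28 and 33 and between 49 and 53. The lists took 0.107 and 0.0735% (dyneins) and 0.301 and 0.227% (radial spokes) of the summed values at 5dpi, against 0.697 and 0.624% and 1.97 and 1.91% in Uninj cells. Reads of near-identical copies such as Dnah7a and Dnah7b or Rsph3a and Rsph3b can be split by the counting, so single members of those pairs are uncertain.

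Single members of the dynein list ranged from -5.57 to -0.94 on the log2 scale and those of the radial spoke list from -5.63 to -0.57. Ccdc40, which sets the spacing of dyneins and spokes along the doublet, had 177 and 164 in 5dpi cells, against 2409.8 and 2175 in Uninj cells (log2 fold change -3.74 ± 0.20, adjusted p = 2.5e-05). Dnali1, an inner arm light intermediate chain, had 683 and 422 in 5dpi cells, against 7479 and 7264 in Uninj cells, a 13.3-fold drop (adjusted p = 2.9e-05). Dnah12, an inner arm heavy chain, had 732 and 659 in 5dpi cells, against 7767 and 5425 in Uninj cells (log2 fold change -3.22 ± 0.19, adjusted p = 3.4e-05). In each of these genes both injured libraries lay below both uninjured ones, as in every gene called lower and in 29.5% of all genes tested. Dyx1c1 (Dnaaf4), a dynein assembly factor, had 112 and 103 in 5dpi cells, against 1580.0 and 1301 in Uninj cells (log2 fold change -3.73 ± 0.25, adjusted p = 5.1e-05). Dynlrb2, a dynein light chain of the roadblock type, had 1135 and 689.9 in 5dpi cells, against 11155 and 11255 in Uninj cells (log2 fold change -3.66 ± 0.27, adjusted p = 7.2e-05). Rsph1, a radial spoke head protein, had 1374 and 1023 in 5dpi cells, against 14996 and 13690.2 in Uninj cells, a drop of 12-fold (adjusted p = 2.6e-05). At 1dpi Rsph1 stood between, at 8439 and 7596. Spag16, of the central pair, had 424 and 344 in 5dpi cells, against 5230.3 and 4945 in Uninj cells (log2 fold change -3.73 ± 0.21, adjusted p = 2.6e-05). Ccdc153 had 1169 and 872 in 5dpi cells, against 26339 and 24060.5 in Uninj cells, a 24.7-fold drop (adjusted p = 2.6e-05). Pifo, named above for its promoter after its values were seen, had 845 and 751 in 5dpi cells, against 5168 and 5617 in Uninj cells (log2 fold change -2.76 ± 0.18, adjusted p = 4.8e-05), and Cfap161, chosen in the same way, had 436 and 168 in 5dpi cells, against 6650.3 and 6314 in Uninj cells (log2 fold change -4.58 ± 0.41, adjusted p = 0.00015).

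Genes of transport into the cilium were called lower in most cases. Of 36 tested genes of intraflagellar transport and the BBSome, the complexes that carry cargo along cilia, 29 were called lower and 0 higher, with a median of -1.48. That count was 18 without 5dpi replicate 1, 17 without 5dpi replicate 2, 18 without Uninj replicate 1 and 20 without Uninj replicate 2, so many single calls needed all 4 libraries. Ttc30b had 1446 and 958 in 5dpi cells, against 7108 and 7894 in Uninj cells (log2 fold change -2.67 ± 0.19, adjusted p = 6.6e-05). Ift88, a core subunit of the outward train, had 386 and 321 in 5dpi cells, against 3637 and 1641 in Uninj cells (log2 fold change -2.79 ± 0.35, adjusted p = 0.00077), and the Uninj libraries lay further apart than the 5dpi ones. Ttc8, a BBSome subunit, had 1186 and 1341 in 5dpi cells, against 5260.5 and 4572 in Uninj cells (log2 fold change -1.96 ± 0.19, adjusted p = 0.00024), while Wdr35, of the return train, had 1369.6 and 1270.0 in 5dpi cells, against 5924 and 3767 in Uninj cells (log2 fold change -1.84 ± 0.24, adjusted p = 0.001).

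Among 14 tested regulators of ciliogenesis, 7 were called lower and 1 higher, with a median of -1.46 and a range from -5.85 to 1.99. The lower count was 5 without 5dpi replicate 1 or without Uninj replicate 2, and 4 without 5dpi replicate 2. Myb, which acts early in the programme of multiciliated cells, had 241 and 174 in 5dpi cells, against 3429.7 and 3488 in Uninj cells, a 16.7-fold drop (adjusted p = 5.2e-05). Trp73, an upstream activator of Foxj1, had 24.2 and 19.1 in 5dpi cells, against 524 and 478 in Uninj cells (log2 fold change -4.48 ± 0.76, adjusted p = 0.0035), and Rfx2, one of the X-box factors, had 342 and 414 in 5dpi cells, against 1759 and 1306 in Uninj cells (log2 fold change -2.01 ± 0.33, adjusted p = 0.003). Rfx3 had 1193 and 862 in 5dpi cells, against 4135 and 1894 in Uninj cells, and its call (adjusted p = 0.015) was lost without 5dpi replicate 2. E2f5 was the member called higher, with 894 and 1161 in 5dpi cells, against 155 and 424 in Uninj cells, and lost its call without either 5dpi library (adjusted p = 0.015 with all).

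**Figure D2:**
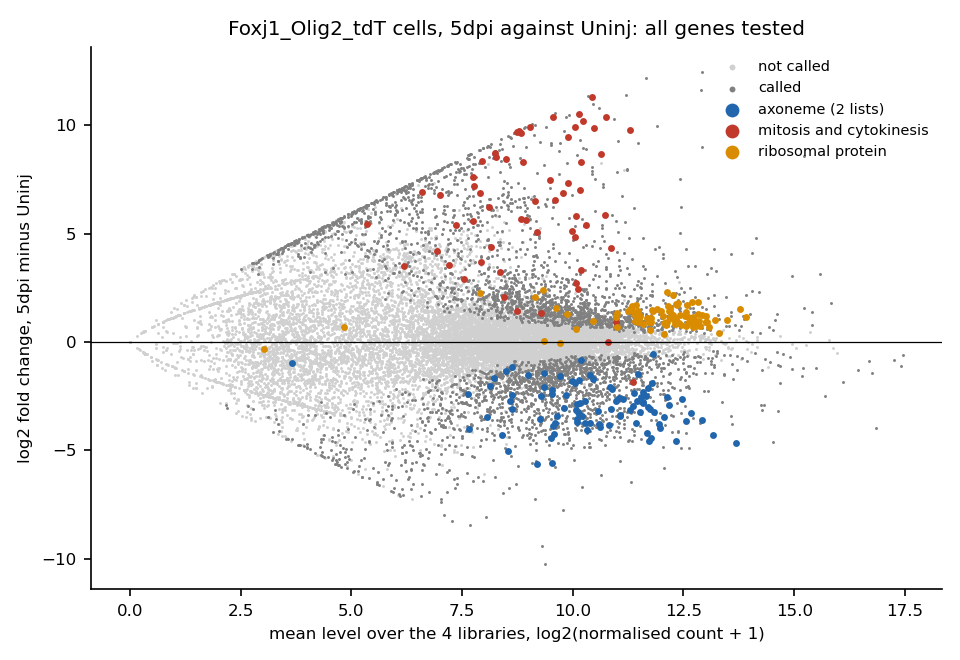
Log2 fold change (5dpi minus Uninj in Foxj1_Olig2_tdT cells) against the mean level over the 4 libraries for the 15811 genes tested, with axoneme, mitosis and ribosomal protein genes coloured. Axoneme genes lie below 0 with medians of -3.05 and -3.04, mitosis genes above it with a median of 6.53, and ribosomal protein genes in a narrow band about a median of 1.14.

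Secreted and membrane proteins typical of ependyma fell too. Of 17 tested, 11 were called lower and 1, Vim, higher, and the list took 1.61 and 1.35% of the summed values at 5dpi, against 4.74 and 4.75% in Uninj cells. Rarres2, which encodes the secreted protein chemerin, had 2071 and 1629 in 5dpi cells, against 48457 and 41873 in Uninj cells, a drop of 24.4-fold (adjusted p = 5.9e-05). Nnat (neuronatin) had 17578 and 11260.1 in 5dpi cells, against 212268 and 228257 in Uninj cells (log2 fold change -3.97 ± 0.32, adjusted p = 0.0001), and at 1dpi it was still at 157879.6 and 102343. Pltp, a lipid transfer protein, had 1721 and 1576 in 5dpi cells, against 26456 and 19884 in Uninj cells (log2 fold change -3.80 ± 0.21, adjusted p = 2.6e-05), and Hspa2, a chaperone, had 1088 and 1091 in 5dpi cells, against 12157 and 12372 in Uninj cells (log2 fold change -3.49 ± 0.19, adjusted p = 2.6e-05). Tmem212, a marker of ciliated ependymal cells, had 1024 and 782 in 5dpi cells, against 17894 and 17052 in Uninj cells (log2 fold change -4.29 ± 0.25, adjusted p = 3.1e-05). Mia, a secreted matrix protein, had 91.3 and 54.8 in 5dpi cells, against 1880.5 and 1712 in Uninj cells (log2 fold change -4.64 ± 0.30, adjusted p = 4.8e-05). In Foxj1_tdT cells Mia was at 8926 and 10054 at 5dpi and 11345 and 11936 in Uninj, so it stood far lower in the Olig2 genotype at both times.

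Cadherin and junction genes were called about as often as genes in general. Of 22 tested 3 were called lower (13.6%, against 11.6% of all genes) and 2 higher (9.09%, against 14.0%), with a median of -0.44. Ocln, a tight junction protein, had 324 and 218 in 5dpi cells, against 2639.5 and 2522 in Uninj cells (log2 fold change -3.27 ± 0.26, adjusted p = 9.3e-05). Crb2, a determinant of apical polarity, had 375 and 216 in 5dpi cells, against 1408 and 1726 in Uninj cells (log2 fold change -2.45 ± 0.31, adjusted p = 0.00077), and Cdhr3, a cadherin of ciliated cells, had 367 and 222 in 5dpi cells, against 8468 and 7809 in Uninj cells (log2 fold change -4.83 ± 0.26, adjusted p = 2.5e-05). Ctnnb1 (beta-catenin) was called higher with 6413 and 7726 in 5dpi cells, against 3562 and 3185 in Uninj cells (adjusted p = 0.0048), a call lost without 5dpi replicate 2. Cldn1, listed at 1.1 and 0 in Uninj cells and at 177 and 464 at 5dpi, lost its call (adjusted p = 0.027) without any 1 of the 4 libraries.

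Transcription factors of the oligodendrocyte lineage gave a mixed picture in which Sox10 stood out. Of 22 tested, 6 were called higher (27.3%, against 14.0% of all genes) and 3 lower (13.6%, against 11.6%). Sox10, a factor needed for oligodendrocyte differentiation, had 592 and 765 in 5dpi cells, against 0 and 1 in Uninj cells and was at 0 and 0 at 1dpi (adjusted p = 0.00075). It was listed at 0 in all Foxj1_tdT libraries at 5dpi and in Uninj, and the difference of the injury effects had an adjusted p of 0.054, which missed the threshold. Sox4, expressed in immature progenitors, had 3859.9 and 3268 in 5dpi cells, against 506 and 755 in Uninj cells (log2 fold change 2.52 ± 0.32, adjusted p = 0.00083). Etv5, a target of FGF and PDGF signalling, had 293 and 618 in 5dpi cells, against 21.4 and 31.7 in Uninj cells (log2 fold change 3.98 ± 0.53, adjusted p = 0.0011), and the related Etv4 had 67.5 and 62.9 at 5dpi and was listed at 0 in both Uninj libraries (adjusted p = 0.0022). Olig1, the partner gene of Olig2 and chosen after its values were seen, had 537 and 52.5 in 5dpi cells, against 0 and 1 in Uninj cells. Its injured libraries lay far apart, and its call (adjusted p = 0.041) was lost without any 1 of the 4 libraries. Nkx6-1, a ventral progenitor factor that acts upstream of Olig2 in the embryo, was called lower with 171 and 183 in 5dpi cells, against 1366 and 1249 in Uninj cells (log2 fold change -2.88 ± 0.34, adjusted p = 0.00056). Id4, an inhibitor of oligodendrocyte differentiation, was lower as well, with 429.8 and 608 in 5dpi cells, against 2840.1 and 2522 in Uninj cells (log2 fold change -2.39 ± 0.33, adjusted p = 0.0013).

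Of 28 tested membrane and secreted genes of oligodendrocyte progenitors, 8 were called higher (28.6%, against 14.0% of all genes) and 1 lower. Their median was 2.48 (2.43 without the 4 members listed at 0 in a group). The higher count fell to 4 without either 5dpi library. Cspg4, which encodes NG2 and defines these progenitors, had 270.0 and 64.8 at 5dpi and was listed at 0 in both Uninj libraries (adjusted p = 0.003). Pdgfra, the other defining receptor, was below the filter and had 437.1 and 1.1 in 5dpi cells, against 2.1 and 0 in Uninj cells. It was thus high in 1 injured library and near 0 in the other. Ptprz1, a receptor phosphatase of progenitors and astrocytes, had 4886 and 4090.4 in 5dpi cells, against 593 and 1119.9 in Uninj cells (log2 fold change 2.45 ± 0.44, adjusted p = 0.0047). Vcan, the matrix proteoglycan versican, had 2323 and 2805 in 5dpi cells, against 128 and 329 in Uninj cells (log2 fold change 3.63 ± 0.50, adjusted p = 0.0012). Vcan rose more in Foxj1_tdT cells (difference -6.31), from a lower uninjured level. C1ql1, another progenitor marker, had 9 and 2.2 in 5dpi cells, against 0 and 0 in Uninj cells and did not pass the test (adjusted p = 0.1).

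Genes of committed and myelinating oligodendrocytes did not move as a group. Of 20 tested genes of committed cells 4 were called higher and 3 lower (0 lower without 5dpi replicate 2 or Uninj replicate 1, and 1 without either of the others), and of 26 myelin genes 4 were called higher (15.4%) and 1 lower, a share near the 14.0% of all genes. Enpp6, a marker of newly forming oligodendrocytes, had 97.4 and 63 at 5dpi and was listed at 0 in both Uninj libraries (adjusted p = 0.006). Myelin genes called higher were Ptgds, Gjc3, Cryab and Anln, of which Cryab is a stress chaperone and Anln (anillin) also acts in cell division. Gjc3, a connexin of myelinating cells, had 509.8 and 229 in 5dpi cells, against 2.1 and 4 in Uninj cells (adjusted p = 0.0024). Mbp (myelin basic protein) had 255 and 114 in 5dpi cells, against 3148 and 991 in Uninj cells and did not pass the test (adjusted p = 0.15). Mog was listed at 0 in all 4 libraries. Both 5dpi libraries lay below both Uninj ones for Mbp (log2 fold change -3.37 ± 1.54), and it was called when either Foxj1_tdT 1dpi library was left out of the fit. Those 1dpi libraries lay far apart, at 8240.0 and 162.

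**Figure D3:**
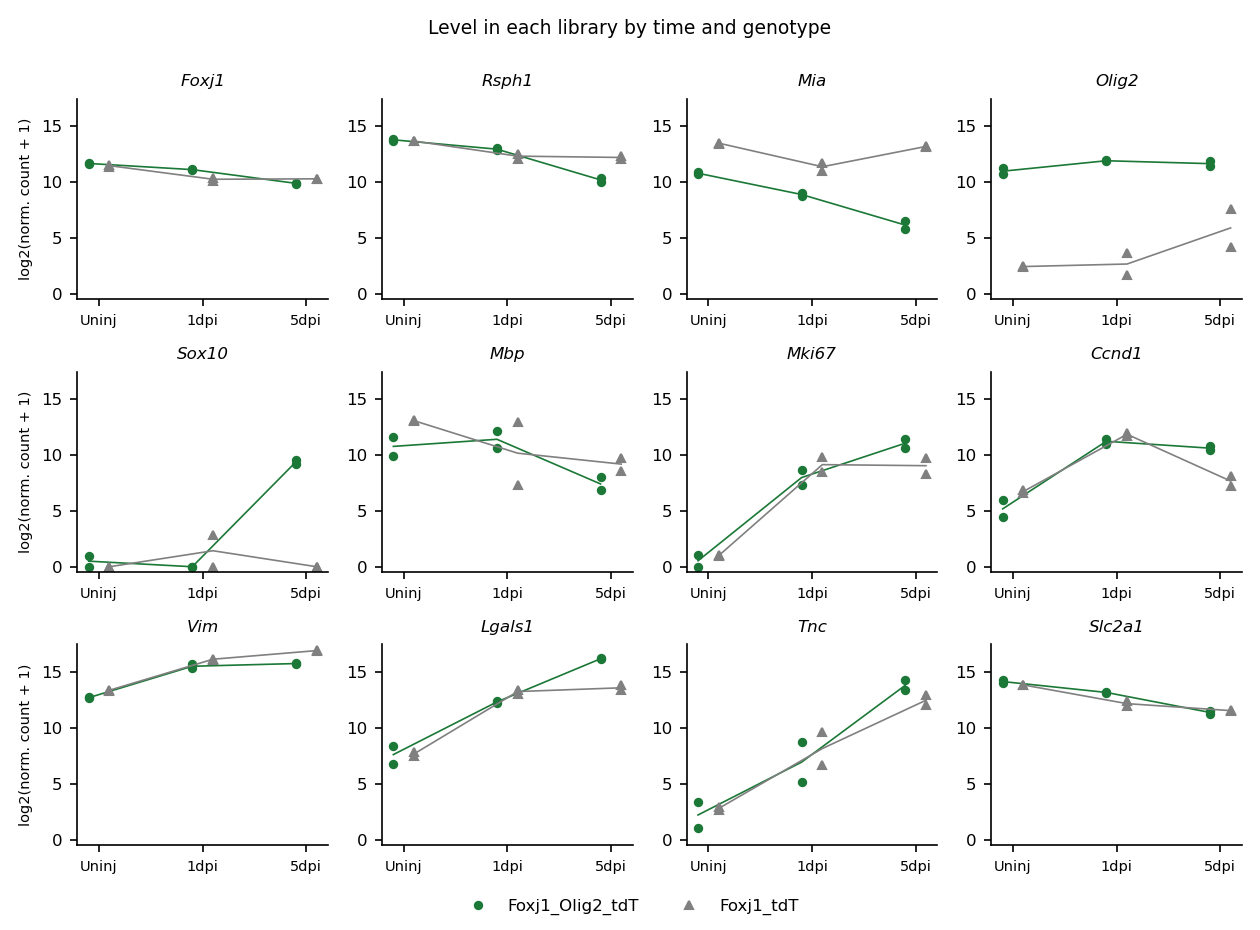
Level of 12 genes in each library, on the log2(normalised count + 1) scale, by time and genotype, with circles for Foxj1_Olig2_tdT, triangles for Foxj1_tdT and a line through the group means. Foxj1 and Rsph1 step down over time, Sox10 is at or near 0 except in the Foxj1_Olig2_tdT libraries at 5dpi, and Mki67 and Tnc are near 0 without injury and high at 5dpi.

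Genes of division had the highest median of all lists counted. Of 60 tested genes of mitosis and cytokinesis, 51 were called higher and 1 lower, and the median log2 fold change was 6.53, or 5.88 without the 7 members listed at 0 in a group. The higher count was 31 without 5dpi replicate 2, 41 without 5dpi replicate 1, 45 without Uninj replicate 1 and 46 without Uninj replicate 2. The list took 0.454 and 0.827% of the summed values at 5dpi, against 0.0812 and 0.0677% in Uninj cells, and 5dpi replicate 2 had the higher sum. Mki67, the antigen of cycling cells, had 1612 and 2869.9 in 5dpi cells, against 1.1 and 0 in Uninj cells (adjusted p = 8.3e-05). Over Uninj, 1dpi and 5dpi it rose in steps, with 396 and 163 at 1dpi. Cdk1, the mitotic kinase, had 1439.5 and 3366 in 5dpi cells, against 0 and 2.5 in Uninj cells (adjusted p = 5.2e-05). Cdc20, which activates the anaphase-promoting complex, had 1727 and 3807 at 5dpi and was listed at 0 in both Uninj libraries (adjusted p = 0.0039). Bub1, of the spindle checkpoint, and the condensin subunit Ncaph were also listed at 0 in both Uninj libraries. They had 677 and 1094 (adjusted p = 6.5e-05) and 659 and 1038 (adjusted p = 6.5e-05) at 5dpi. The midzone kinesin Kif20a had 852 and 2171 against 0 in both Uninj libraries (adjusted p = 0.00016), and Pbk, a mitotic kinase, had 2143 and 4069 in 5dpi cells, against 0 and 1.7 in Uninj cells (adjusted p = 0.00015). The member called lower was Pttg1 (securin), with 1263 and 1001 in 5dpi cells, against 4805 and 3452 in Uninj cells (log2 fold change -1.86 ± 0.23, adjusted p = 0.00071).

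Genes of DNA replication and of the G1 phase rose with them. Of 48 replication genes 30 were called higher and 1 lower, with a median of 2.31, and the higher count was 21 without 5dpi replicate 2. Tk1 and Tyms make thymidine nucleotides. Tk1 had 893 and 1306 in 5dpi cells, against 7.4 and 11.2 in Uninj cells (log2 fold change 6.74 ± 0.53, adjusted p = 9e-05) and Tyms had 1498 and 1609.5 in 5dpi cells, against 63.9 and 121 in Uninj cells (log2 fold change 4.13 ± 0.38, adjusted p = 0.00016). Pcna, the sliding clamp, had 4253 and 2774 in 5dpi cells, against 539.6 and 559.8 in Uninj cells (log2 fold change 2.64 ± 0.25, adjusted p = 0.00019), and at 1dpi it was already at 4077 and 3440.2. Mcm2 of the replicative helicase had 936 and 1034 in 5dpi cells, against 7.5 and 31.5 in Uninj cells (log2 fold change 5.89 ± 0.57, adjusted p = 0.00021). Mcm6, chosen for its promoter, had 3343 and 2806 in 5dpi cells, against 1160.5 and 660.4 in Uninj cells (log2 fold change 1.81 ± 0.35, adjusted p = 0.0066), a call lost without 5dpi replicate 1. Of 24 G1 genes 14 were called higher and 1 lower, and 8 were called higher without 5dpi replicate 2. Ccnd1 (cyclin D1) had 1421 and 1762 in 5dpi cells, against 60.7 and 20.5 in Uninj cells (log2 fold change 5.44 ± 0.51, adjusted p = 0.00019) and had been at 2045 and 2878 at 1dpi. Its partner kinase Cdk4 had 7484 and 8592 in 5dpi cells, against 2969 and 2567 in Uninj cells (log2 fold change 1.54 ± 0.14, adjusted p = 0.00016). E2f3 had 113 and 186 and was listed at 0 in both Uninj libraries (adjusted p = 0.00021). Rbl2 (p130), a repressor of resting cells, was called lower with 422 and 611 in 5dpi cells, against 1598 and 1003 in Uninj cells (adjusted p = 0.016), a call lost without 5dpi replicate 1 or Uninj replicate 1.

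**Figure D4:**
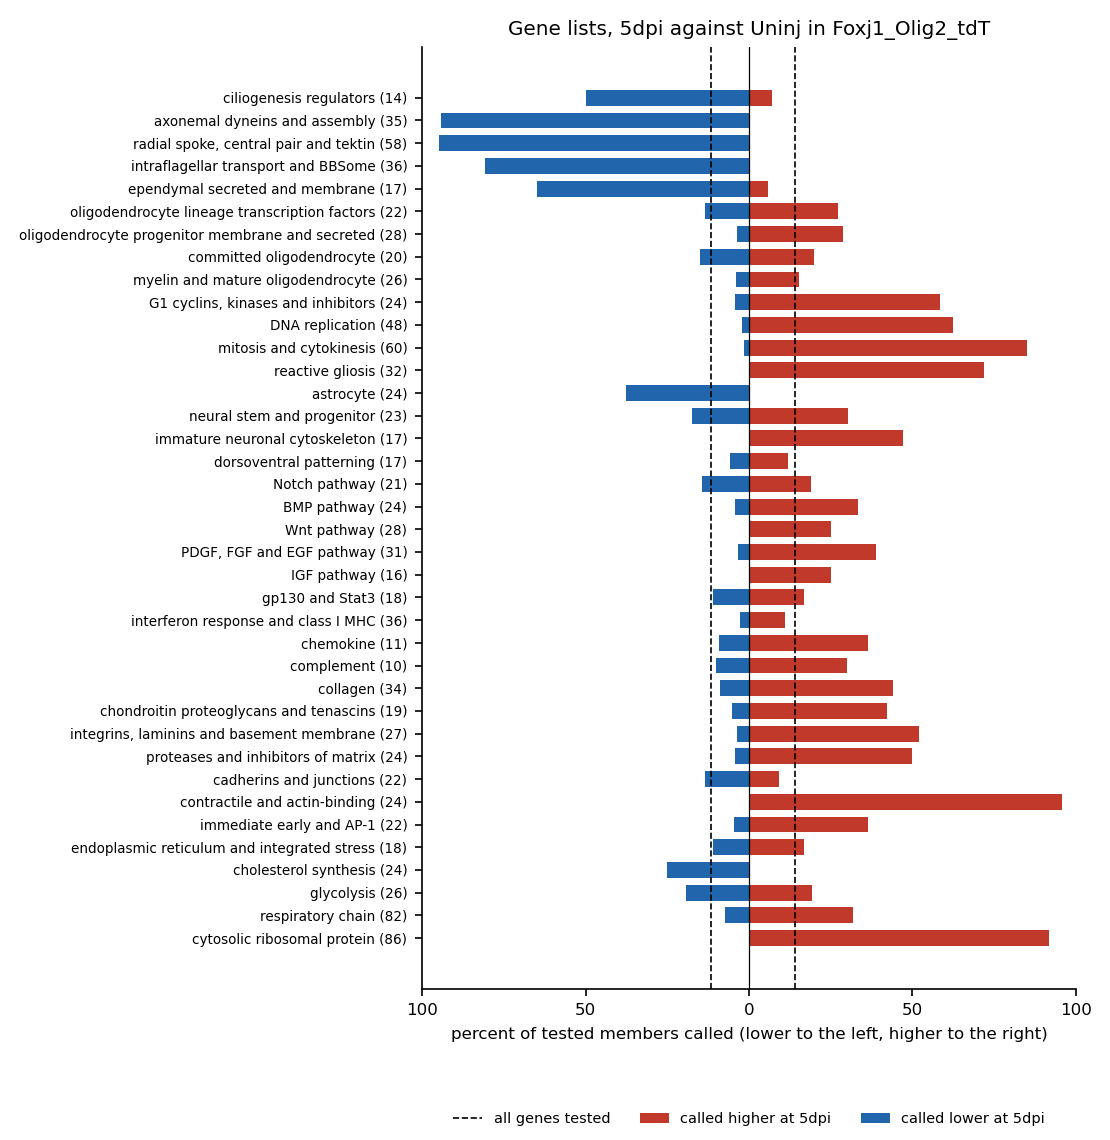
Percent of the tested members of each gene list called higher (right) or lower (left) at 5dpi in Foxj1_Olig2_tdT cells, with the number tested in brackets and dashed lines at 14.0% and 11.6%, the shares over all genes tested. Axonemal, radial spoke and intraflagellar lists reach furthest to the left, and the contractile, ribosomal and mitosis lists furthest to the right.

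Reactive gliosis genes rose together. Of 32 tested, 23 were called higher and 0 lower, with a median of 3.32, and 17 to 20 were called higher with each of the 4 libraries left out. Lgals1 (galectin-1) had 74064 and 77731 in 5dpi cells, against 112 and 344 in Uninj cells (log2 fold change 8.59 ± 0.44, adjusted p = 2.4e-05). Vim (vimentin) had 56758 and 56092 in 5dpi cells, against 7069 and 6454 in Uninj cells, a rise of 8.35-fold in the means (adjusted p = 2e-05), and was already at 41796 and 54439 at 1dpi. Nes (nestin), the intermediate filament of progenitors, had 5053 and 4057 in 5dpi cells, against 67.9 and 132 in Uninj cells (log2 fold change 5.56 ± 0.37, adjusted p = 5e-05). Osmr, the oncostatin M receptor, had 1348 and 1250.3 in 5dpi cells, against 2.9 and 4.2 in Uninj cells (adjusted p = 5e-05). Gfap had 5895 and 1928 in 5dpi cells, against 186 and 588 in Uninj cells, and over time it was highest at 1dpi with 16859.6 and 10425. Its call (adjusted p = 0.0069) was lost without 5dpi replicate 1. Gap43, a growth-associated protein, had 6924 and 6010.5 in 5dpi cells, against 0 and 0.9 in Uninj cells (adjusted p = 2.4e-05).

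Some astrocyte genes outside that programme fell. Of 24 tested, 0 were called higher, 9 lower (37.5%, against 11.6% of all genes) and 15 neither, with a median of -1.46, and 6 were called lower without 5dpi replicate 2. Slc6a11, a GABA transporter, had 1.8 and 0 in 5dpi cells, against 203 and 313 in Uninj cells (adjusted p = 0.00038). Kcnj16, a potassium channel subunit, had 952 and 667 in 5dpi cells, against 3468 and 3073 in Uninj cells (log2 fold change -2.03 ± 0.22, adjusted p = 0.00036). Slc39a12, a zinc transporter, had 597 and 425 in 5dpi cells, against 5220.3 and 4372 in Uninj cells (log2 fold change -3.24 ± 0.28, adjusted p = 0.00014), and Mlc1 had 6123 and 5248 in 5dpi cells, against 16719 and 15327 in Uninj cells (log2 fold change -1.50 ± 0.22, adjusted p = 0.0016). Aldh1l1, a defining marker of astrocytes, had 11 and 85.7 in 5dpi cells, against 54 and 76.7 in Uninj cells and did not pass the test (adjusted p = 0.46).

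Neural stem genes split, with 30.4% called higher and 17.4% lower, against 14.0 and 11.6% of all genes. Of 23 tested, 7 were called higher and 4 lower, and without 5dpi replicate 1 these counts were 4 and 2. Hes5, a Notch target, had 647 and 217 at 5dpi and was listed at 0 in both Uninj libraries (adjusted p = 0.0021), and Egfr had 368 and 287 in 5dpi cells, against 3.9 and 10.0 in Uninj cells (log2 fold change 5.47 ± 1.03, adjusted p = 0.0056). Msi1, an RNA-binding protein of progenitors, was called lower with 151 and 195 in 5dpi cells, against 525 and 505 in Uninj cells (log2 fold change -1.58 ± 0.31, adjusted p = 0.0068). Sox9 was called lower as well, with 7048 and 7808 in 5dpi cells, against 10979 and 12430.1 in Uninj cells (log2 fold change -0.66 ± 0.16, adjusted p = 0.016), a call lost without either 5dpi library or without Uninj replicate 2. Genes of the immature neuronal cytoskeleton were called higher in 8 of 17 and lower in 0. Stmn1 (stathmin) had 9500.3 and 11884 in 5dpi cells, against 374 and 274 in Uninj cells (log2 fold change 5.05 ± 0.23, adjusted p = 2.4e-05), Dclk1 (doublecortin-like kinase) had 2866 and 2805 in 5dpi cells, against 232 and 197 in Uninj cells (log2 fold change 3.72 ± 0.21, adjusted p = 2.7e-05) and Tmsb10 (thymosin beta-10) had 8063 and 7722 in 5dpi cells, against 446 and 495 in Uninj cells (log2 fold change 4.07 ± 0.16, adjusted p = 1.8e-05).

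Genes of actin binding and contraction were higher nearly without exception. Of 24 tested 23 were called higher and 0 lower, with a median of 2.28, and the list took 2.32 and 2.14% of the summed values at 5dpi, against 0.458 and 0.442% in Uninj cells. The count was 11 without 5dpi replicate 1, 12 without 5dpi replicate 2, 18 without Uninj replicate 1 and 14 without Uninj replicate 2. Tmsb4x (thymosin beta-4), which binds actin monomers, had 88452 and 89088 in 5dpi cells, against 9505 and 10694 in Uninj cells (log2 fold change 3.14 ± 0.25, adjusted p = 9.9e-05). Cfl1 (cofilin) had 24769 and 25828 in 5dpi cells, against 5491 and 5662 in Uninj cells (log2 fold change 2.18 ± 0.14, adjusted p = 4.8e-05) and Pfn1 (profilin) had 10094 and 11794 in 5dpi cells, against 1760.3 and 2083 in Uninj cells (log2 fold change 2.51 ± 0.21, adjusted p = 0.00011). Tpm1 (tropomyosin 1) had 23370.0 and 22409 in 5dpi cells, against 1510.1 and 1241 in Uninj cells, a rise of 16.6-fold (adjusted p = 0.00014). Its relative Tpm2 had 1703 and 1392 and was listed at 0 in both Uninj libraries (adjusted p = 0.0012). Cnn2 (calponin 2) had 2175 and 1671 in 5dpi cells, against 0 and 0.8 in Uninj cells (adjusted p = 0.00028), and Anxa3 (annexin A3) had 2761 and 2429 against 0 in both Uninj libraries (adjusted p = 2e-05).

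Extracellular matrix genes rose in part. Of 34 tested collagen genes and their modifying enzymes 15 were called higher and 3 lower, with a median of 3.08, or 1.58 without the 3 members listed at 0 in a group. The lower count was 1 without 5dpi replicate 1 or Uninj replicate 2. Col1a1, of fibrillar collagen I, had 2468 and 2583 in 5dpi cells, against 2.8 and 6.2 in Uninj cells (log2 fold change 8.92 ± 0.73, adjusted p = 0.00011). Col4a6, of basement membranes, had 1172 and 1276 in 5dpi cells, against 1 and 1 in Uninj cells (adjusted p = 5.2e-05) and Col11a1 had 819 and 1062 in 5dpi cells, against 6.3 and 10.9 in Uninj cells (log2 fold change 6.65 ± 0.43, adjusted p = 5e-05). Col8a2 was called lower with 96.9 and 109 in 5dpi cells, against 1204 and 1254 in Uninj cells (log2 fold change -3.57 ± 0.31, adjusted p = 0.00013). Lox, which cross-links collagen, had 5072 and 4344 in 5dpi cells, against 0 and 2 in Uninj cells (adjusted p = 0.0015), and Loxl1 had 732 and 592 against 0 in both Uninj libraries (adjusted p = 9.9e-05).

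Of 19 chondroitin proteoglycans and tenascins 8 were called higher (42.1%, against 14.0% of all genes) and 1 lower. Tnc (tenascin C) had 19761 and 10751 in 5dpi cells, against 1.1 and 9.2 in Uninj cells (log2 fold change 11.62 ± 1.31, adjusted p = 0.00045), and Cd44, the hyaluronan receptor, had 2538 and 2993 in 5dpi cells, against 92 and 128 in Uninj cells (log2 fold change 4.66 ± 0.44, adjusted p = 0.00018). Of 27 integrin, laminin and basement membrane genes 14 were called higher and 1 lower, a count of 9 without 5dpi replicate 1 and 8 without 5dpi replicate 2. Fn1 (fibronectin) had 12615 and 9246 in 5dpi cells, against 124 and 164 in Uninj cells (log2 fold change 6.23 ± 0.56, adjusted p = 0.00015). Its receptor subunit Itga5 had 4343 and 3444 in 5dpi cells, against 2.1 and 2 in Uninj cells (adjusted p = 9.9e-05). The partner subunit Itgb1 had 16305 and 15949 in 5dpi cells, against 1947 and 1186 in Uninj cells (log2 fold change 3.41 ± 0.40, adjusted p = 0.00054). Ligand and receptor were thus higher in both injured libraries, as was every gene called higher and 34.7% of all genes tested. Of 24 matrix proteases and inhibitors 12 were called higher and 1 lower, a count of 6 without 5dpi replicate 1 and 5 without 5dpi replicate 2. Timp1, an inhibitor of matrix metalloproteases, had 1435 and 2327 in 5dpi cells, against 28.1 and 38.8 in Uninj cells (log2 fold change 5.75 ± 0.73, adjusted p = 0.00083), whereas Timp4 was called lower with 249 and 232 in 5dpi cells, against 2413 and 3667 in Uninj cells (log2 fold change -3.62 ± 0.28, adjusted p = 9e-05).

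Collagens also mark fibroblasts, so markers of other cells are given beside these results. Of 7 tested fibroblast markers 5 were called higher and 0 lower, with Col1a1, Col1a2 and Col3a1 among them, and 3 were called without 5dpi replicate 2. The others called were Postn and Fbln1, which are not collagens. Postn had 1549.9 and 712.8 at 5dpi, against 0 in both Uninj libraries. Fbln1 had 346.7 and 521.9 at 5dpi, against 35.6 and 64.1 in Uninj cells. The fibroblast list took 0.0892 and 0.0749% of the summed values at 5dpi, against 0.00757 and 0.0027% in Uninj cells. Dcn (decorin), which fibroblasts express at high levels, had 1.2 and 0 in 5dpi cells, against 1 and 0.5 in Uninj cells. Lum, Dpt and Slc6a13, also on the fibroblast list, had no entry among the values used here and could not be measured. Of 8 pericyte entries 4 had values, and 0 of these 4 were called. Rgs5 had 0 and 12 at 5dpi, against 0 in both Uninj libraries. Kcnj8 had 45.1 and 47.2 against 1.1 and 0, and Notch3 had 53.5 and 52.1 against 23.1 and 8.1. Ndufa4l2 went the other way, with 0 and 6.9 against 31.5 and 29.2. Of 7 tested microglia markers 1 was called higher, and 0 without 5dpi replicate 2 or Uninj replicate 1, and the list took 0.00787 and 0.0104% at 5dpi, against 0.00318 and 0.00417% in Uninj cells. Of the leukocyte markers 0 of 2 were called, and Ptprc (CD45), counted with microglia, had 10.8 and 1.9 in 5dpi cells, against 5.7 and 2.5 in Uninj cells. Some other markers of these lists were listed at 0 in both Uninj libraries. Among them, Lyz2 had 28.8 and 24.1 at 5dpi, Arg1 0.9 and 178.5, Cd68 41.7 and 4.6 and Csf1r 1.8 and 26.1. Siglech, Ccr2 and Cd3d were lower on average at 5dpi, with Siglech at 8.2 and 0 against 25 and 14.8. Values were present for 7 of 16 microglia entries and 4 of 14 leukocyte entries. Of 7 endothelial markers 2 were called higher (28.6%) and 1 lower (14.3%), against 14.0% and 11.6% of all genes. Of 7 neuronal markers 1 (Nefm) was higher (14.3%), and of 6 Schwann cell markers 2 were higher (33.3%), Sox10 among them. Among neuronal markers not called, Nefl had 886.3 and 196 at 5dpi, against 0 and 1 in Uninj cells, and Gad2 20.9 and 95.8 against 2.6 and 4.9. Snap25 had 34.2 and 7.7 against 161.3 and 129.9, and Syp had 58.3 and 63.1 against 154.5 and 140.2. The endothelial calls in the higher direction were lost without any 1 of the 4 libraries. The part of other cells in the matrix, Sox10 and neuronal cytoskeleton results was not tested.

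Signalling pathways changed in a minority of their members. The share called higher was 33.3% in the BMP list and 25% in each of the Wnt and IGF lists, against 14.0% of all genes. The higher counts of these lists fell without either 5dpi library, as did the count over all genes, so these shares are uncertain. In the PDGF, FGF and EGF pathway 12 of 31 were called higher (38.7%, against 14.0% of all genes) and 1 lower. Hbegf, a ligand of the EGF receptor, had 5646 and 5711 in 5dpi cells, against 592 and 412 in Uninj cells (log2 fold change 3.52 ± 0.35, adjusted p = 0.00025). Spry1, a feedback inhibitor, had 307 and 217 at 5dpi against 0 in both Uninj libraries (adjusted p = 9.8e-05), and Dusp6, which dephosphorylates ERK, had 748 and 1344 in 5dpi cells, against 103 and 38.9 in Uninj cells (log2 fold change 3.96 ± 0.57, adjusted p = 0.0016). The BMP list had 8 of 24 called higher and 1 lower, but 2 without 5dpi replicate 1 and 3 without 5dpi replicate 2. Bmp1, a protease that trims procollagen, had 2782 and 3905 in 5dpi cells, against 269 and 181 in Uninj cells (log2 fold change 3.89 ± 0.29, adjusted p = 7.2e-05). Id3, a BMP target, had 1721 and 935 in 5dpi cells, against 55.9 and 81.9 in Uninj cells, a call (adjusted p = 0.007) lost without 5dpi replicate 1. The Wnt list had 7 of 28 called higher and 0 lower, and 4 without 5dpi replicate 1 or Uninj replicate 1 and 3 without 5dpi replicate 2. The ligand Wnt7b had 1071 and 1119 in 5dpi cells, against 43.6 and 42.9 in Uninj cells (log2 fold change 4.63 ± 0.46, adjusted p = 0.00023) and the receptor Fzd7 had 199 and 156 in 5dpi cells, against 0 and 3 in Uninj cells (adjusted p = 0.00083).

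In the Notch list 4 of 21 were called higher (19.0%) and 3 lower (14.3%), near the 14.0 and 11.6% of all genes, and 2 were called higher without either 5dpi library or without Uninj replicate 2. The receptor Notch1 had 4665 and 5111 in 5dpi cells, against 1309 and 872 in Uninj cells (log2 fold change 2.19 ± 0.26, adjusted p = 0.00058), while Dner, a ligand-like membrane protein, had 2397 and 1622 in 5dpi cells, against 8621 and 6174 in Uninj cells (log2 fold change -1.89 ± 0.26, adjusted p = 0.0012) and Dtx1 (deltex) had 250.3 and 254 in 5dpi cells, against 859 and 974 in Uninj cells (log2 fold change -1.86 ± 0.26, adjusted p = 0.0013). The IGF list had 4 of 16 called higher and 0 lower, with 2 higher without either 5dpi library or Uninj replicate 2, and Igfbp6 had 393 and 324 in 5dpi cells, against 0 and 3 in Uninj cells (adjusted p = 0.0016). Of 17 dorsoventral patterning genes 2 were called higher (11.8%) and 1 lower (5.88%), both under the shares of all genes. Of these only Nkx6-1, above, held in every setting tried.

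Lists of inflammation differed in their share of calls. Of 36 interferon and class I genes 4 were called higher (11.1%, against 14.0% of all genes) and 1 lower, and of 18 genes of gp130 and Stat3 signalling 3 were higher (16.7%) and 2 lower (11.1%), with 0 lower without any 1 of the 4 libraries. Of 11 chemokine genes 4 were called higher (36.4%) and 1 lower, with 2 higher without either 5dpi library. Ccl2, which attracts monocytes, had 675 and 279 in 5dpi cells, against 1 and 0 in Uninj cells (adjusted p = 0.00031), and Ccl7 had 2284 and 414 against 0 in both Uninj libraries (adjusted p = 0.00031). At 1dpi Ccl2 had 1462 and 1043 and Ccl7 had 1028 and 1683. In Foxj1_tdT cells at 5dpi Ccl2 was listed at 0 and 0 and Ccl7 at 1 and 1. Of 10 complement genes 3 were called higher (30%) and 1 lower. C3 had 155 and 142 in 5dpi cells, against 1.4 and 0.7 in Uninj cells (adjusted p = 0.0026) and was at 1094 and 771 at 1dpi. B2m, the light chain of class I molecules, had 9189 and 7906 in 5dpi cells, against 1589 and 1926 in Uninj cells (log2 fold change 2.28 ± 0.40, adjusted p = 0.0041). Of 22 immediate early and AP-1 genes 8 were called higher (36.4%) and 1 lower, a count of 5 without 5dpi replicate 1 or Uninj replicate 2 and 4 without 5dpi replicate 2, but 13 without Uninj replicate 1. Fosl2, an AP-1 subunit, had 1261 and 1053 in 5dpi cells, against 12.6 and 0.9 in Uninj cells (log2 fold change 7.83 ± 0.95, adjusted p = 0.00062), and Fosl1 had 324 and 362 in 5dpi cells, against 0 and 1 in Uninj cells (adjusted p = 0.0032).

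Most ribosomal protein genes rose. Of 86 tested 79 were called higher and 0 lower, with a median of 1.14 and a range from -0.32 to 2.41, and they took 4.36 and 4.30% of the summed values at 5dpi, against 1.86 and 1.90% in Uninj cells. With each of the 4 libraries left out 72 to 79 were called. Near the upper end of that range, Rpl39 had 7862 and 7024 in 5dpi cells, against 1333 and 1724 in Uninj cells (log2 fold change 2.29 ± 0.16, adjusted p = 5.1e-05) and Rps26 had 8223 and 7726 in 5dpi cells, against 1526 and 2045 in Uninj cells (log2 fold change 2.17 ± 0.18, adjusted p = 0.00011). Many of these genes have near-identical pseudogenes that can share reads, so single values are uncertain. The respiratory chain encoded in the nucleus had 26 of 82 called higher (31.7%) and 6 lower, a count of 13 without 5dpi replicate 1, 12 without 5dpi replicate 2 and 17 without Uninj replicate 1. Its median was 0.41. Cox7c had 6896 and 6448 in 5dpi cells, against 3015 and 2780.3 in Uninj cells (log2 fold change 1.20 ± 0.14, adjusted p = 0.00056), while Ndufb10 was called lower with 2251 and 1896 in 5dpi cells, against 5141 and 4142 in Uninj cells (log2 fold change -1.16 ± 0.17, adjusted p = 0.0017) and Sdha with 3372 and 3263 in 5dpi cells, against 6204 and 6508 in Uninj cells (log2 fold change -0.94 ± 0.14, adjusted p = 0.002). The mitochondrially encoded share given above was lower at 5dpi.

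Lists of sugar metabolism and of stress in the endoplasmic reticulum had calls near the share of all genes. Of 26 glycolysis genes 5 were called higher (19.2%, against 14.0% of all genes) and 5 lower (19.2%, against 11.6%), with 2 in each direction without 5dpi replicate 2, 3 and 2 without 5dpi replicate 1 or Uninj replicate 2, and 3 and 4 without Uninj replicate 1. Slc2a1, the glucose transporter GLUT1, had 2456 and 2981 in 5dpi cells, against 19763 and 17221 in Uninj cells, a drop of 6.8-fold (adjusted p = 4.1e-05), and at 1dpi it was at 9089.5 and 9659.5. Aldoa had 7592 and 8639 in 5dpi cells, against 16545 and 16410.2 in Uninj cells (log2 fold change -1.02 ± 0.13, adjusted p = 0.00093), whereas Ldha, which makes lactate, was called higher with 6954 and 9050.1 in 5dpi cells, against 2950.5 and 2238 in Uninj cells (log2 fold change 1.63 ± 0.24, adjusted p = 0.0016). Of 24 genes of cholesterol synthesis 0 were called higher and 6 lower (25%), with a median of -0.34. Insig1, the sensor of sterol levels, had 164 and 101 in 5dpi cells, against 725 and 1198 in Uninj cells (log2 fold change -2.85 ± 0.37, adjusted p = 0.00096), Srebf2, the factor that drives the pathway, had 170.5 and 268 in 5dpi cells, against 1025 and 815 in Uninj cells (log2 fold change -2.09 ± 0.32, adjusted p = 0.0022) and Sqle, a rate-limiting enzyme, had 478 and 807 in 5dpi cells, against 2338 and 2011 in Uninj cells (log2 fold change -1.80 ± 0.29, adjusted p = 0.0025). Of 18 genes of endoplasmic reticulum stress 3 were called higher (16.7%) and 2 lower (11.1%), with 0 higher without 5dpi replicate 2. Dnajc3, a chaperone of that response, was called lower with 2282 and 2644 in 5dpi cells, against 9869.7 and 9950.5 in Uninj cells (log2 fold change -2.01 ± 0.13, adjusted p = 5e-05).

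The largest single changes outside the lists were given by rank. Among called genes with a mean of at least 50 in 1 group, the highest fold changes included Emp3, a membrane protein, with 2479.8 and 3101 in 5dpi cells, against 0 and 0.8 in Uninj cells (adjusted p = 1.9e-05). Prss23, a serine protease, ranked first with 16473 and 14374 in 5dpi cells, against 0 and 6.2 in Uninj cells, and its call (adjusted p = 0.0069) was lost without either 5dpi library. At the other end Pik3c2g, a lipid kinase, had 1.9 and 0 in 5dpi cells, against 1794 and 745 in Uninj cells (adjusted p = 5.9e-05), and Neu2, a sialidase, had 2.7 and 0 in 5dpi cells, against 469.9 and 570.0 in Uninj cells (adjusted p = 0.00033). Scn7a, a sodium channel, was listed at 0 in both 5dpi libraries and had 171 and 368 in Uninj cells (adjusted p = 0.0011). Ptx4 had 27.1 and 1.1 in 5dpi cells, against 2187 and 1286 in Uninj cells (log2 fold change -7.77 ± 1.15, adjusted p = 0.0017). Chd3os, also among the lowest, lies antisense to another gene, and without knowledge of the strand its reads cannot be told apart from those of its partner.

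The same injury contrast was read in Foxj1_tdT cells. There 1293 genes (8.18%) were called, 886 higher (5.60%) and 407 lower (2.57%), and the difference of the injury effects (Foxj1_Olig2_tdT minus Foxj1_tdT) was called for 222 genes (1.40%), 58 higher and 164 lower. The Foxj1_tdT contrast sets 2 libraries against 1 averaged sample with no spread of its own, so its standard errors are larger and its counts cannot be compared with those of Foxj1_Olig2_tdT cells. In 100 of the 222 genes the genotypes lay further apart in Uninj than at 5dpi on the log2 scale, 34 of the 58 called higher and 66 of the 164 called lower. The counts of the difference depended strongly on single libraries. There were 0 by limma without 5dpi replicate 2 of Foxj1_Olig2_tdT (1908 genes at an unadjusted p under 0.05), 0 without 5dpi replicate 2 of Foxj1_tdT (2074 such genes) and 3 without 5dpi replicate 1 of Foxj1_tdT. There were 88 without 5dpi replicate 1 of Foxj1_Olig2_tdT, 91 without its Uninj replicate 1, 360 without its Uninj replicate 2, 29 without either of its 1dpi libraries, and 129 and 131 without 1dpi replicate 1 and 2 of Foxj1_tdT. With the closely alike Foxj1_tdT Uninj libraries entered as 2 samples in place of 1, 417 and 734 were called. Of the 222 genes 53 (23.9%, against 12.5% of all tested) were listed at 0 in all libraries of 1 of the 4 groups.

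Cilium genes were among those called lower in the difference. The median log2 fold change of the dynein list was -3.05 in Foxj1_Olig2_tdT cells and -1.14 in Foxj1_tdT cells, and that of the radial spoke list was -3.04 and -1.18. In the dynein list 5 of 35 genes were called lower in the difference and in the radial spoke list 9 of 58, with 0 higher, against 1.04% of all genes called lower. In Foxj1_tdT cells alone, with the larger standard errors given above, 8 of the dynein genes and 20 of the radial spoke genes were called lower. Rsph1 had 1374 and 1023 at 5dpi in Foxj1_Olig2_tdT cells and 4466 and 5118 in Foxj1_tdT cells, with 14996 and 13690.2 against 13065 and 13441 in Uninj (difference -2.12 ± 0.32, adjusted p = 0.027). Ccdc40 had 1645 and 1442 at 5dpi and 2025 and 2349 in Uninj in Foxj1_tdT cells (difference -3.23 ± 0.31, adjusted p = 0.018). The Foxj1_tdT libraries of the 2 groups thus lay far closer together than those of Foxj1_Olig2_tdT. Hspa2 (difference -2.24 ± 0.30, adjusted p = 0.026) and Mia (difference -4.35 ± 0.48, adjusted p = 0.018) fell further in Foxj1_Olig2_tdT cells as well.

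In the mitosis list 4 of 60 genes were called in the difference, higher in each case, against 0.367% of all genes, with medians of 6.53 in Foxj1_Olig2_tdT cells and 3.11 in Foxj1_tdT cells. Cdk1 had 589 and 433 at 5dpi and 62.3 and 77.8 in Uninj in Foxj1_tdT cells (difference 7.37 ± 1.10, adjusted p = 0.027). Foxj1_Olig2_tdT minus Foxj1_tdT was 2.12 at 5dpi and -5.25 in Uninj, so the larger part of that difference lay in the uninjured groups. Ccnd1, with 283 and 148 at 5dpi and 97.5 and 116 in Uninj in Foxj1_tdT cells, differed by 4.51 ± 0.81 (adjusted p = 0.042). Cdk4 differed by 1.20 ± 0.22 (adjusted p = 0.045). Bub1b had 702 and 1389 at 5dpi in Foxj1_Olig2_tdT cells and 155 and 71.9 in Foxj1_tdT cells, and 0 in both libraries against 234 and 176 in Uninj cells (adjusted p = 0.03). Depdc1a, a mitotic gene with the same pattern, had 927 and 1239.9 and 67.6 and 78.8 at 5dpi, and 0 in both against 188 and 179.9 in Uninj (adjusted p = 0.018). Here too the gap between genotypes was smaller at 5dpi (3.21 for Bub1b and 3.86 for Depdc1a) than in Uninj (-7.69 and -7.53). For Ccnd1 the gap was 2.95 at 5dpi and -1.56 in Uninj, and for Cdk4 it was 1.20 and -0.0036. Gliosis genes had similar medians in Foxj1_Olig2_tdT and Foxj1_tdT cells, 3.32 and 3.11, and 1 of 32 (Gap43) was called in the difference. Oligodendrocyte lineage factors had medians of 0.69 and 0.59, and membrane and secreted genes of progenitors 2.48 and 0.89. In each of these 2 lists 0 genes were called higher in the difference and 1 was called lower.

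**Figure D5:**
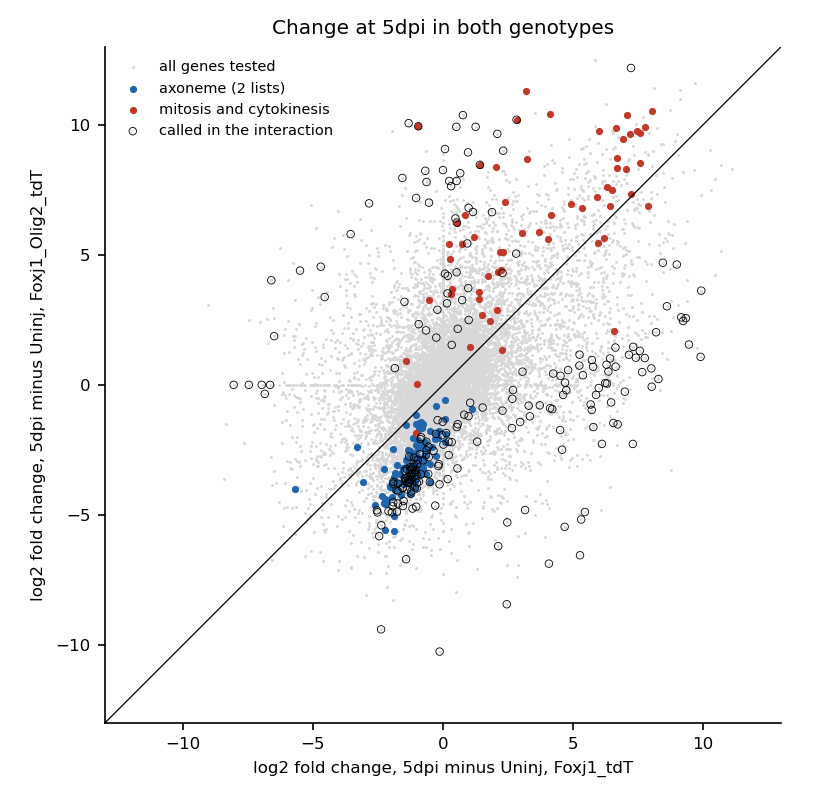
Log2 fold change (5dpi minus Uninj) in Foxj1_Olig2_tdT cells on the vertical axis against Foxj1_tdT cells on the horizontal axis, with the line of equal change and open circles for the 222 genes called in the difference. Axoneme genes (medians -3.05 and -3.04 against -1.14 and -1.18) lie mostly below the line and most mitosis genes above it.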

How the data were processed

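Ependymal cells were profiled by bulk RNA sequencing (Smart-seq2, per the labels). The deposited values are the authors' normalised counts per gene, treated as a signal with 1 decimal, and neither the counting program nor the scaling is given in the sources used here. The submitters' processing notes name mm10, Bowtie2 and SAMtools without saying for which assay. Groups were taken from the labels. Values were analysed as log2(value + 1), a pseudocount of 1, with limma 3.58.1 in R 4.3.3 (trended empirical Bayes, 6 group means, 5 residual degrees of freedom). The 2 Foxj1_tdT Uninj libraries, which were far more alike than any other pair, were averaged and counted as 1 sample, so 11 columns were fitted. Testing covered the 15811 of 16301 genes that reached 10 in 2 or more of 12 libraries, with Benjamini-Hochberg adjustment over all of them and a threshold of 0.05. The fit was tested on simulated data with known changes. Fold changes on this scale understate the change of low genes, and a gene listed at 0 in both libraries of a group has none given.

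The members, gene lists, motifs and tests were chosen with earlier results of these data known, and lists are described by counts and medians with no set test. Genes were named by a rule: Olig2 and Foxj1, the 12 highest and 12 lowest fold changes among called genes without overlap and with a mean of at least 50 in 1 group, as many as 5 called members of each list in each direction, the 6 highest and 6 lowest differences between genotypes, and defining markers. Among them, genes whose call held in every alternative were preferred after their values were seen, which makes them firmer than a typical call. Alternatives were a pseudocount of 8, other filters, median-of-ratios and quantile scaling, a fit of the compared libraries alone, a replicate block and the omission of single libraries, in which a lone library was assumed to vary like the others. Promoter sequences and motif searches used the RefSeq table for GRCm38.p6, and figures and tables were made with Python 3.11.15 (numpy 2.4.6, pandas 2.3.3, matplotlib 3.10.9). A few genes that the rule names are not reported here.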

Additional observations from a re-analysis of the deposited data

Results flagged for a closer look

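Genes named above whose injury effect differed between the genotypes by the test of the difference itself (Foxj1_Olig2_tdT minus Foxj1_tdT, log2 scale, limma) are given here with that value. The calls rest on single libraries, as given with the counts, and a value that involves a group listed at 0 depends on the pseudocount and is no fold change. Every call given here was also lost in a fit of the compared libraries alone, where 0 genes were called in the difference. The calls of Gap43, Vcan and Wnt7b were lost with a pseudocount of 8, and those of Gap43, Ccl2 and Cdk4 with quantile scaling.

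The axoneme and transport genes named here had negative differences, with a larger fall in Foxj1_Olig2_tdT cells. Ccdc40 differed by -3.23, Rsph1 by -2.12 and Dnah12 by -2.04. Dnali1 differed by -2.45, Dyx1c1 by -2.44 and Dynlrb2 by -2.42. Spag16 differed by -1.82, Ttc30b by -1.78 and Pifo by -1.45, with adjusted p-values of 0.041, 0.038 and 0.04985. The call of Pifo was also lost without the filter on low values, with a pseudocount of 8 and with median-of-ratios or quantile scaling. The ependymal genes Mia, Hspa2 and Pltp differed by -4.35, -2.24 and -1.88, and the cadherin Cdhr3 by -2.28. The chaperone gene Dnajc3 differed by -1.17 and the protease inhibitor Timp4 by -3.81.

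The cell cycle genes named here had positive differences. In the list of 48 replication genes 1 was called higher and 1 lower in the difference. The lower one was Gins3, not named above, which differed by -6.17 with the larger gap in Uninj. Cdk1 differed by 7.37, Ccnd1 by 4.51 and Cdk4 by 1.20. Bub1b differed by 10.90, Depdc1a by 11.39 and E2f3 by 8.22, and these 3 were listed at 0 in both Foxj1_Olig2_tdT Uninj libraries but not in the Foxj1_tdT ones (234 and 176, 188 and 179.9 and 61 and 88.5). For Cdk1, Bub1b, Depdc1a, E2f3, Dclk1, Hbegf and Col11a1 the genotypes lay further apart in Uninj than at 5dpi, so these differences rest more on the uninjured groups. Stmn1 differed by 2.23, Dclk1 by 2.75 and Gap43 by 4.96. The ligand gene Hbegf differed by 3.35 and Col11a1 by 4.76. Ccl2 differed by 8.27 and Ccl7 by 9.41.

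In 2 genes Foxj1_tdT cells moved more, from an uninjured level at or near 0. Vcan differed by -6.31, with 2097 and 1030.2 at 5dpi and 0 and 1 in Uninj in Foxj1_tdT cells. Wnt7b differed by -4.37, with 357 and 728 at 5dpi against 0 in both Uninj libraries of Foxj1_tdT cells. Pik3c2g fell further in Foxj1_Olig2_tdT cells and differed by -7.03, with 319.9 and 341 at 5dpi and 1771 and 1674 in Uninj in Foxj1_tdT cells.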

How the results depend on the processing

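Of the 145 genes named and called, 128 kept the call in all 20 alternatives tried and 0 changed direction in any. Genes whose call held were preferred for naming, so that choice set this share in part. It does not describe called genes in general. The losses came mostly without 5dpi replicate 2 (12 genes), without 5dpi replicate 1 (11) and in a fit of the 4 compared libraries alone (10). Leaving out each library in turn gave 957 to 2260 genes higher, 1048 to 1830 lower and 2005 to 4047 in all. A fit of the compared libraries alone called 1594 and 1225, and 2503 of the 4048 genes called in the main fit were called there too. Quantile scaling, which moved the median of all genes from 0.12 to -0.03, called 2080 and 2014. The cause of these differences was not tested beyond the fewer libraries in a fit.

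The difference between genotypes was the least stable result. Leaving out each library gave 0 to 199 genes higher, 0 to 161 lower and 0 to 360 in all. A fit of the compared libraries alone called 0 (limma), with 2508 genes at an unadjusted p under 0.05, against 2569 in the fit of all groups. Counting the closely alike Foxj1_tdT Uninj libraries as 2 samples called 417 higher and 734 lower, 1151 in all. The replicate numbers pair nothing by the labels, and same-numbered libraries deviated with correlations of -0.03 to 0.02. With the number as a replicate block, and the pair as 2 libraries, 2622 and 2132 genes were called between 5dpi and Uninj, and 357 higher, 674 lower and 1031 in all in the difference. Pairs of 2 libraries limit the precision, and the read depth is unknown.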
